A study of Mus musculus with 12 samples.

Results

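The 5 genes described here encode factors through which marrow stromal cells hold and feed blood cells: the chemokine gene Cxcl12, the growth factor genes Kitl, Il7 and Csf1, and the adhesion molecule gene Vcam1. They were taken by name, without use of their values, from the 24421 genes of the deposited stabilized table, and all 5 were among the 18948 genes tested. Bulk RNA sequencing was available for 12 mouse libraries of freshly isolated material. Of these, 6 came from sarcomas of the bone or bone marrow of p53 knockout mice (KO tumor), 3 from marrow mesenchymal stem cells labelled as p53 knockout (KO MSC) and 3 from marrow mesenchymal stem cells of p53 wild-type mice (WT MSC). The stem cells had been sorted for the leptin receptor (LepR) and CD140a, the product of Pdgfra, and against the blood and endothelial markers CD45, Ter119 and CD31. For tumors, TRIzol extraction is described and no sort, so a tumor library may hold RNA of every cell in the tissue. The sources used here do not give the allele, the driver of the deletion, the ages or whether each library is a separate animal. The tests therefore compare values with the spread among libraries, which may be technical.

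LepR+ stromal cells surround the sinusoids of the marrow and are its main source of several blood cell factors. CXCL12 draws and keeps blood stem cells and B cell precursors through the receptor CXCR4, while ACKR3 takes CXCL12 up without classical signalling. KIT ligand (SCF), the product of Kitl, sustains blood stem cells and mast cells through the receptor KIT. IL-7 sustains B and T cell precursors through IL7R and the common gamma chain, and CSF1 sustains macrophages and osteoclasts through CSF1R. VCAM1 sits on the stromal surface and binds the integrin VLA-4 on blood cells.

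On mm10, Cxcl12 lies on the plus strand of chromosome 6 from 117168535 to 117181367, and Kitl on the plus strand of chromosome 10 from 100015630 to 100100416. On the minus strand of chromosome 3 lie Il7 from 7569994 to 7613760, Csf1 from 107741048 to 107760469 and Vcam1 from 116109949 to 116129688. RefSeq promoters (GRCm38.p6, the same build) were matched for 3 of the 5 members, Cxcl12, Kitl and Csf1. The 250 bases before the start sites of Cxcl12 and Csf1 are shown because these genes had the largest and the smallest difference between tumors and WT MSCs among the members. In the Cxcl12 promoter (chr6:117168285-117168534, plus strand), the capitals mark the GC box GGGCGG on either strand:
Cxcl12: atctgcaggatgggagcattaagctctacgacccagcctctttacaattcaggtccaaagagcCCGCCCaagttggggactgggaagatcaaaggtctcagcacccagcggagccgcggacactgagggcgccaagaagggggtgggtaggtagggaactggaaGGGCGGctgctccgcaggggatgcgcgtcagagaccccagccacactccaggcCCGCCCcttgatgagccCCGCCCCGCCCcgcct
In the Csf1 promoter (chr3:107760470-107760719, minus strand), the capitals mark the kappaB motif, to which NF-kB factors bind, and the GC box:
Csf1: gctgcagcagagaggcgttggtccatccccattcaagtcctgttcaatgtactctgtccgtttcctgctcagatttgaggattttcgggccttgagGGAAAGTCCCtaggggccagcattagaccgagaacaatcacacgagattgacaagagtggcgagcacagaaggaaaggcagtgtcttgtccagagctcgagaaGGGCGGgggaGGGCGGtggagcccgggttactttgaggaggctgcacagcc

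The Cxcl12 window held the GC box at 5 places, beginning at -187, -86, -33, -16 and -11 from the start site, and the last 2 overlap. The Csf1 window held the kappaB motif at -154 and the GC box at -51 and -41. Of 32851 promoter windows of this length, 32.7% held a GC box and 7.25% a kappaB motif. Neither window held the forkhead core GTAAACA (3.17% of windows) or the TATA box TATAAA (12.4%). The Kitl window, which is not shown, held the kappaB motif at -152, the GC box at -143, -45 and -41, the TATA box at -25 and no forkhead core. All 4 motifs were searched on both strands. These matches describe letters and not binding.

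Before the members, the labels and the libraries were checked. Trp53, the gene that encodes p53, was at 7.56, 7.80, 8.72, 9.16, 7.19 and 6.79 in tumors 1 to 6, 10.49, 9.76 and 6.96 in KO_MSC 1 to 3 as labelled, and 9.96, 10.04 and 10.61 in WT MSCs (stabilized log2 values, in which a step of 1 is a doubling for well-expressed genes). The libraries labelled KO_MSC 1 and 2 therefore stood near or within the WT range, against their label, and results that use them are given for libraries labelled KO MSC. A value for the whole gene does not show which exons were read. Floor values shared exactly among libraries divided them into 2 batches: batch 1 held KO_MSC 1, WT_MSC 1 and tumors 1 to 3, and batch 2 the other 7. The libraries labelled KO_MSC 1 and WT_MSC 1 had fewer genes at the floor (2569 and 3594) than the other libraries (8886 to 12313). Depth is unknown, since the values are not counts.

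Markers set the groups apart as well. The mean of 7 LepR+ stromal markers was 6.45 to 8.12 in tumors, 9.80 to 10.78 in the libraries labelled KO MSC and 11.37 to 12.29 in WT MSCs. Of the 7, 6 were lower in tumors than in WT MSCs and 3 were lower than in the libraries labelled KO MSC. The leptin receptor gene Lepr, a sort marker, was 8.65 ± 0.96 lower there (SE), whereas Pdgfra, the other sort marker, was 2.22 ± 0.52 lower. The mean of 12 macrophage markers was 10.67 to 13.87 in tumors, 5.27 to 6.59 in the libraries labelled KO MSC and 5.20 to 6.68 in WT MSCs, and 11 of the 12 were higher in tumors in both comparisons. Of 10 endothelial markers, 8 were higher in tumors than in WT MSCs and 5 than in the libraries labelled KO MSC. Eng was 1.73 and 0.14 lower in tumors in these comparisons and did not pass. These counts are of genes with a limma adjusted p under 0.05. Of all genes, 10.9% passed as lower and 10.4% as higher in tumor against WT MSC. In tumor against the libraries labelled KO MSC, 2.28% passed as lower and 2.7% as higher. The mean of 9 granulocyte markers was 5.23 to 7.56 in tumors, 8.29 to 12.82 in the libraries labelled KO MSC and 7.27 to 10.86 in WT MSCs, with its highest value in the library labelled KO_MSC 1. Ptprc, which encodes CD45, was at 7.11 to 10.67 in tumors, 5.69 to 7.60 in the libraries labelled KO MSC and 5.69 to 6.42 in WT MSCs. The value 5.69 was shared exactly by KO_MSC 2, KO_MSC 3 and WT_MSC 3, at the floor of batch 2. In batch 1, KO_MSC 1 (7.60) lay within the range of tumors 1 to 3 (7.11 to 7.74), and WT_MSC 1 was at 6.08. For all values below, fewer cells of a type and less RNA per cell cannot be told apart in bulk RNA, and the part of these markers in the members' differences was not tested.

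**Figure D1:**
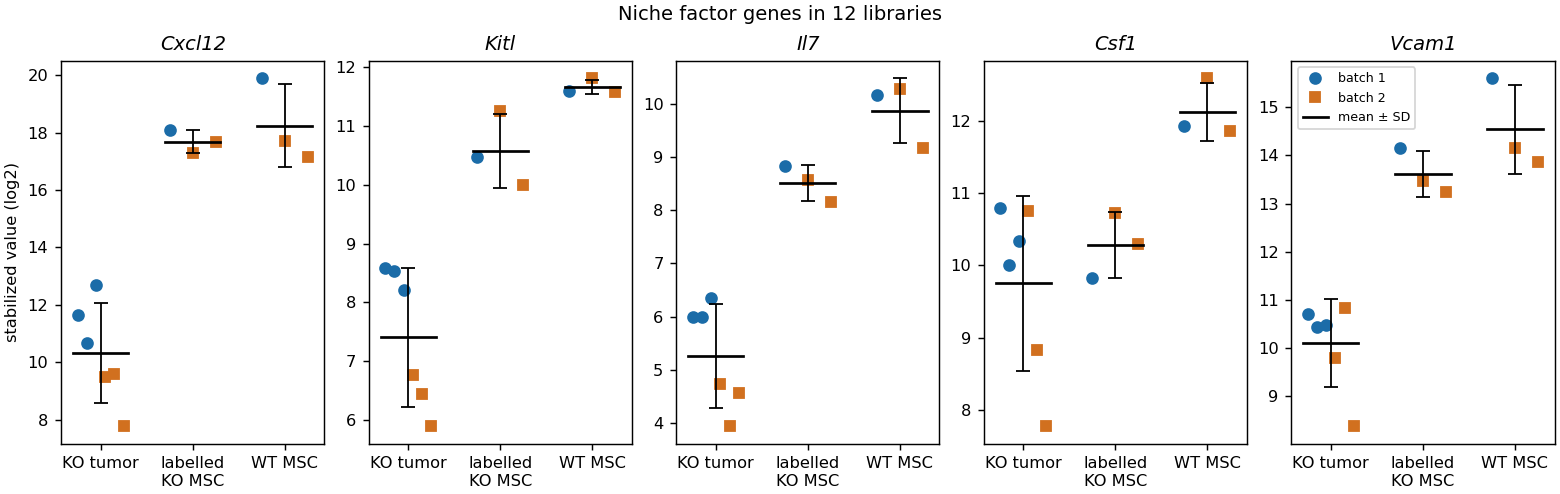
Stabilized log2 values (vertical axis) of the 5 niche factor genes in KO tumors (n = 6), libraries labelled KO MSC (n = 3) and WT MSCs (n = 3), left to right; each point is 1 library, circles are batch 1 and squares batch 2, and lines show the mean ± SD. Tumors lay below every MSC library for Cxcl12, Kitl, Il7 and Vcam1, whereas for Csf1 the tumors (7.78 to 10.79) overlapped the libraries labelled KO MSC (9.83 to 10.73) and lay below WT MSCs (11.86 to 12.58).

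Cxcl12 had the largest difference of the 5 in both tumor comparisons, and the smallest in the libraries labelled KO MSC against WT MSCs. Its values were 7.77 in the lowest tumor, 10.14 at the median and 12.69 in the highest, against 18.08, 17.29 and 17.69 in the libraries labelled KO_MSC 1 to 3 and 19.89, 17.69 and 17.15 in WT_MSC 1 to 3. Every tumor lay below every MSC library, and the MSC groups overlapped. The mean in tumors was 7.93 ± 1.01 below WT MSCs (SE; limma, adjusted p = 0.00132) and 7.37 ± 0.91 below the libraries labelled KO MSC (adjusted p = 0.00334). Those sizes are 243.5-fold and 165.4-fold on this scale. In both comparisons, which share the 6 tumors, only 1 of the 18948 genes had a lower difference. Within batches, tumors were lower than WT MSCs by 8.21 in batch 1 and 8.46 in batch 2. The libraries labelled KO MSC differed from WT MSCs by -0.56 ± 1.76 (adjusted p = 0.992), with -1.81 in batch 1 and 0.0675 in batch 2. Without WT_MSC 1, whose value was the highest of all 12, this difference was 0.26, without WT_MSC 3 it was -1.11 and without KO_MSC 2 it was -0.36.

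Kitl, the KIT ligand gene, was at 5.89 in the lowest tumor, 7.49 at the median and 8.59 in the highest, against 10.48, 11.25 and 9.9999 in the libraries labelled KO_MSC 1 to 3 and 11.60, 11.81 and 11.59 in WT_MSC 1 to 3. The 3 groups did not overlap, and WT MSCs were close together. Tumors were 4.26 ± 0.61 below WT MSCs (limma, adjusted p = 0.00169) and 3.17 ± 0.65 below the libraries labelled KO MSC (adjusted p = 0.0213). The call against the libraries labelled KO MSC was lost without KO_MSC 1 (adjusted p = 0.115) or without KO_MSC 2 (0.0872). The libraries labelled KO MSC were at -1.09 ± 0.43 relative to WT MSCs, which did not pass (adjusted p = 0.557), with -1.12 in batch 1 and -1.07 in batch 2. The deposited value does not part the membrane-bound from the soluble splice form of Kitl.

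Il7, the lymphoid growth factor gene, was at 3.94 in the lowest tumor, 5.36 at the median and 6.34 in the highest, against 8.83, 8.57 and 8.15 in the libraries labelled KO_MSC 1 to 3 and 10.16, 10.28 and 9.16 in WT_MSC 1 to 3. The 3 groups again did not overlap. Tumors were 4.60 ± 0.57 below WT MSCs (limma, adjusted p = 0.00118) and 3.25 ± 0.57 below the libraries labelled KO MSC (adjusted p = 0.0104). Without KO_MSC 1 the second of these did not pass (adjusted p = 0.0798). The floor of Il7 lay between 5.56 and 5.99 in batch 1 and between 3.51 and 3.94 in batch 2, so several tumors were at or near it and the differences may be understated. The libraries labelled KO MSC were at -1.35 ± 0.43 relative to WT MSCs (adjusted p = 0.551), with -1.33 in batch 1 and -1.36 in batch 2.

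Csf1, the macrophage growth factor gene, followed another order of sizes. It was at 7.78 in the lowest tumor, 10.18 at the median and 10.79 in the highest, against 9.83, 10.73 and 10.29 in the libraries labelled KO_MSC 1 to 3 and 11.92, 12.58 and 11.86 in WT_MSC 1 to 3. Tumors overlapped the libraries labelled KO MSC, and both lay below every WT MSC library. Tumors were 2.37 ± 0.64 below WT MSCs (limma, adjusted p = 0.0241), and this call was lost without WT_MSC 1 (0.0792), WT_MSC 2 (0.0997) or WT_MSC 3 (0.0658). They differed by -0.53 ± 0.64 from the libraries labelled KO MSC (adjusted p = 0.633), with 0.55 in batch 1 and -1.39 in batch 2. This difference was -0.14 without tumor 6, -0.35 without tumor 5 and -0.31 without KO_MSC 2. The libraries labelled KO MSC were at -1.84 ± 0.42 relative to WT MSCs, the largest difference of the 5 members in that comparison, with -2.10 in batch 1 and -1.71 in batch 2. It did not pass over all genes (limma, adjusted p = 0.551). In tumors the gene could be read from any cell present, since no sort is described.

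Vcam1, the adhesion molecule gene, was at 8.37 in the lowest tumor, 10.45 at the median and 10.83 in the highest, against 14.16, 13.46 and 13.25 in the libraries labelled KO_MSC 1 to 3 and 15.60, 14.15 and 13.87 in WT_MSC 1 to 3. Every tumor lay below every MSC library, and the MSC groups overlapped. Tumors were 4.44 ± 0.59 below WT MSCs (limma, adjusted p = 0.00142) and 3.52 ± 0.55 below the libraries labelled KO MSC (adjusted p = 0.00674). Without KO_MSC 1 the second of these did not pass (adjusted p = 0.0592). The libraries labelled KO MSC were at -0.92 ± 0.70 relative to WT MSCs (adjusted p = 0.738), with -1.44 in batch 1 and -0.66 in batch 2. Without WT_MSC 1 it was -0.39.

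In tumor against WT MSC, all 5 members were lower with an adjusted p under 0.05 and without overlap. Of all genes tested there, 21.3% passed, 10.9% passed as lower and 12.3% were lower without overlap. In tumor against the libraries labelled KO MSC, 4 of the 5 passed, all lower and without overlap, beside 4.98% of all genes that passed, 2.28% that passed as lower and 5.39% that were lower without overlap. With quantile scaling, the split of calls over all genes in that comparison was 520 higher and 961 lower, against 512 and 432 in the reported fit. For the libraries labelled KO MSC against WT MSCs, none of the 5 passed and limma called 0 of 18948 genes (0.0%), with 1637 genes at an unadjusted p under 0.05. Kitl, Il7 and Csf1 were lower there without overlap, as were 8.93% of all genes. The exact two-sided permutation test gave p = 0.0238 for each of the 5 members in tumor against WT MSC and for Cxcl12, Kitl, Il7 and Vcam1 in tumor against the libraries labelled KO MSC, the smallest value that 6 against 3 libraries allow. For 3 against 3 libraries the smallest two-sided p is 0.1, which Kitl, Il7 and Csf1 reached, so this test could not pass 0.05.

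**Figure D2:**
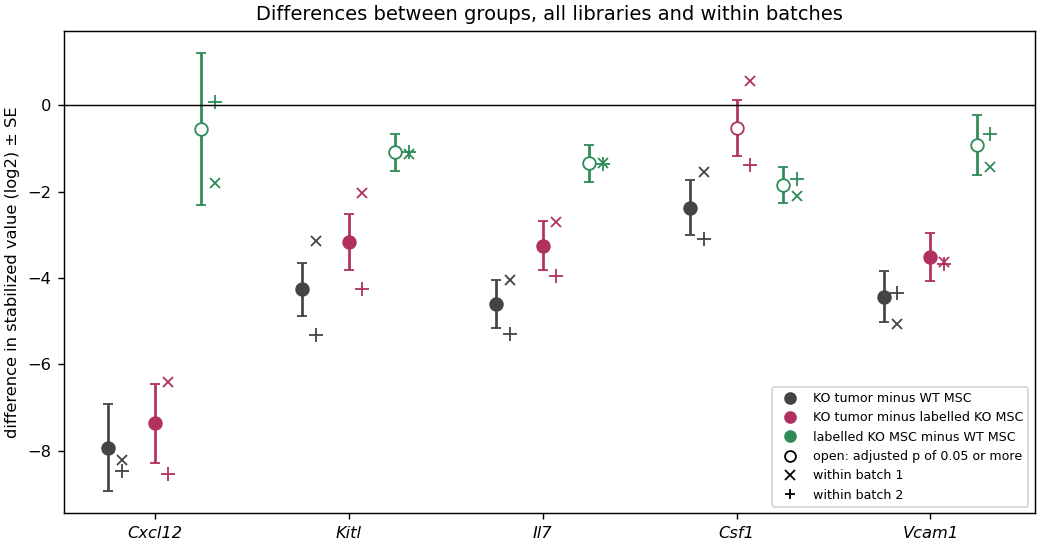
Differences in stabilized log2 value (vertical axis) for each niche factor gene in KO tumor minus WT MSC, KO tumor minus libraries labelled KO MSC, and libraries labelled KO MSC minus WT MSC; circles with bars are limma estimates ± SE (filled where the adjusted p is under 0.05), crosses are batch 1 alone and plus signs batch 2 alone. Cxcl12 lies lowest in both tumor comparisons (-7.93 and -7.37), and within batches every tumor difference is below 0 except Csf1 against the libraries labelled KO MSC in batch 1 (0.55).

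Libraries of the 2 batches stood apart in several members, MSCs included. Batch 1 tumors averaged 2.72 higher than batch 2 tumors in Cxcl12, 2.08 higher in Kitl and 1.70 higher in Il7, without overlap. The difference was 1.26 in Csf1 and 0.87 in Vcam1, where batches overlapped. For Cxcl12, batch 1 was also higher by 0.59 in the libraries labelled KO MSC and by 2.47 in WT MSCs, and for Vcam1 by 0.80 and 1.59. For Il7, the batches also differ in the floor given above, near which several tumors lie, so the value for tumors cannot be told apart from a shift of the floor. Kitl differed by -0.15 in the libraries labelled KO MSC and by -0.10 in WT MSCs between batch 1 and batch 2. For Csf1 these differences were -0.68 and -0.30, and for Il7 0.47 and 0.44. Each MSC group had 1 library in batch 1. The mean of the LepR+ markers was 7.85 to 8.12 in batch 1 tumors and 6.45 to 7.08 in batch 2 tumors. The mean of the macrophage markers was 10.67 to 11.34 in batch 1 tumors and 12.10 to 13.87 in batch 2 tumors. In MSCs it was 5.27 in KO_MSC 1 against 6.36 and 6.59 in the other libraries labelled KO MSC. It was 5.20 in WT_MSC 1 against 6.42 and 6.68 in the other WT MSCs. Several of these markers were at the floor in batch 2 MSCs. Ms4a7 held exactly 5.951 in stem cell libraries 2 and 3 of both groups, against 4.40 in KO_MSC 1 and 4.27 in WT_MSC 1. The MSC difference in this mean therefore cannot be told apart from a shift of the floor between batches. Batch and tumor cannot be told apart here, since each tumor was read in 1 batch, and the same holds for the stem cell libraries. With a batch term in the fit, every member passed in tumor against WT MSC and the same 4 members passed in tumor against the libraries labelled KO MSC.

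By group means, levels stood in the order tumor, libraries labelled KO MSC, WT MSC from lowest to highest for all 5 members. Neighbouring groups overlapped for Cxcl12 and Vcam1 between both MSC groups, and for Csf1 between the libraries labelled KO MSC and tumors. Per kilobase of exon, Cxcl12 was among the highest of 23322 genes in MSCs: it ranked 1082nd to 11519th in tumors, 3rd to 14th in the libraries labelled KO MSC and 2nd to 8th in WT MSCs. Vcam1 ranked 4109th to 9331st in tumors, 137th to 803rd in the libraries labelled KO MSC and 44th to 179th in WT MSCs. Csf1 ranked 2462nd to 8804th in tumors, 2647th to 4444th in the libraries labelled KO MSC and 343rd to 611th in WT MSCs. Kitl ranked 6946th to 18473rd in tumors, 1830th to 4302nd in the libraries labelled KO MSC and 760th to 968th in WT MSCs. Il7 was the lowest of the 5 per length in every group, ranking 15479th to 23120th in tumors, 6771st to 7280th in the libraries labelled KO MSC and 3646th to 5838th in WT MSCs. Its ranks were 15479th to 17560th in batch 1 tumors and 22440th to 23120th in batch 2 tumors. Several of these tumor values lie at or near the floor, which differs between batches. By per-length mean in tumors, Csf1 (7.35 log2 per kilobase) and Cxcl12 (7.28) were the highest of the 5, whereas in WT MSCs Cxcl12 (15.21) was followed by Vcam1 (11.39).

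The receptors of the members did not move as one. Of 9 receptor genes, 2 were higher and 2 lower in tumors than in WT MSCs, and 3 were higher and 0 lower in tumors than in the libraries labelled KO MSC. Of all genes, 10.4% and 2.7% passed as higher in these comparisons, and 10.9% and 2.28% as lower. The median difference was 0.78 in the first comparison, against -0.057 over all genes, and 0.45 in the second, against 0.041. Ackr3, the scavenger receptor of CXCL12, was at 6.74 to 11.63 in tumors, 4.85 to 5.33 in the libraries labelled KO MSC and 5.46 to 5.76 in WT MSCs. It was 3.40 ± 0.83 higher in tumors than in WT MSCs (limma, adjusted p = 0.0150) and 3.87 ± 0.83 higher than in the libraries labelled KO MSC (adjusted p = 0.0248). Cxcr4, the signalling receptor, did not pass, with 0.78 ± 0.30 in tumor against WT MSC (adjusted p = 0.0855). Csf1r, the CSF1 receptor gene and one of the macrophage markers above, was 4.37 ± 0.94 higher in tumors than in WT MSCs (adjusted p = 0.00863) and 4.40 ± 0.91 higher than in the libraries labelled KO MSC (0.0221). Il2rg, the common gamma chain gene, was 2.85 ± 0.72 higher in tumors than in the libraries labelled KO MSC (0.0459), a call lost with a batch term (0.0779), whereas Il7r did not pass in any comparison.

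Kit, the receptor of the Kitl product, was at 5.84 to 6.96 in tumors, against 10.70, 8.33 and 6.88 in the libraries labelled KO_MSC 1 to 3 and 9.46, 8.91 and 9.32 in WT_MSC 1 to 3. Tumors were 2.99 ± 0.33 below WT MSCs (limma, adjusted p = 0.000992), and the difference from the libraries labelled KO MSC did not pass (-2.40 ± 0.69, adjusted p = 0.0695). Blood cell markers moved with it in part. The mean of 7 erythroid markers was 6.79 to 10.59 in tumors, 12.19, 11.54 and 10.10 in the libraries labelled KO_MSC 1 to 3 and 12.87, 9.47 and 10.24 in WT_MSC 1 to 3. In each tumor comparison, 3 of the 7 passed as lower and 0 as higher, beside 10.9% (WT MSC) and 2.28% (labelled KO MSC) of all genes that passed as lower. The globin genes did not pass. Hba-a1 was 0.84 ± 1.32 higher and Hbb-bs 0.39 ± 1.87 lower in tumors than in WT MSCs. The granulocyte mean was 12.82, 9.75 and 8.29 in the libraries labelled KO_MSC 1 to 3, in the same order as Kit. It did not follow Kit in WT_MSC 3 (granulocyte mean 7.27, the lowest of the WT MSCs) or in tumor 6 (7.56, the highest of the tumors). The part of these cells in the Kit values was not tested. Of the VLA-4 genes, Itgb1 was 1.43 ± 0.46 lower in tumors than in WT MSCs (limma, adjusted p = 0.0464), and Itga4 did not pass. The Itgb1 call was lost with upper-quartile scaling (0.0617), a batch term (0.0617) and most other alternatives.

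Proteases known to cut the members were measured with 5 genes. Of these, 3 were lower and 0 higher in tumors than in WT MSCs, and 1 was lower and 0 higher in tumors than in the libraries labelled KO MSC. Of all genes, 10.9% and 2.28% passed as lower in these comparisons. The median difference was -1.19 in the first comparison, against -0.057 over all genes, and -0.57 in the second, against 0.041. Elane, the neutrophil elastase gene, was 5.08 ± 0.73 lower in tumors than in WT MSCs (limma, adjusted p = 0.00168) and 5.66 ± 1.15 lower than in the libraries labelled KO MSC (0.0202). Its values were 5.33 to 6.88 in tumors, 15.11, 11.54 and 7.85 in the libraries labelled KO_MSC 1 to 3 and 12.45, 11.71 and 8.60 in WT_MSC 1 to 3. Elane and Ctsg, the cathepsin G gene, also belong to the granulocyte markers, and Ctsg was 2.78 ± 0.58 lower in tumors than in WT MSCs (adjusted p = 0.00733). Adam17, whose product sheds CSF1 and VCAM1 from the cell surface, was 1.19 ± 0.33 lower in tumors than in WT MSCs (0.0280). Mmp9, whose product releases soluble KIT ligand, was at 8.12 to 14.73 in tumors and 6.26 to 10.27 in WT MSCs, and did not pass (3.63 ± 1.32, adjusted p = 0.0747).

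Among 19 other factors that support blood cells, 17 were tested. Of these, 5 were lower and 0 higher in tumors than in WT MSCs, beside 10.9% of all genes that passed as lower. Against the libraries labelled KO MSC, 3 were lower and 0 higher in tumors, beside 2.28% of all genes that passed as lower. The median differences of the 17 were 0.058 and -0.0023, against -0.057 and 0.041 over all genes, and 12 and 14 of the 17 did not pass. Gas6, which encodes a ligand of the TAM receptors, was 5.23 ± 0.81 lower in tumors than in WT MSCs (limma, adjusted p = 0.00215) and 3.84 ± 0.78 lower than in the libraries labelled KO MSC (0.0204). Bmp4, a bone morphogenetic protein gene, was 4.41 ± 0.47 lower in tumors than in WT MSCs (0.000945) and 2.31 ± 0.56 lower than in the libraries labelled KO MSC (0.0382). Il34, which encodes the other ligand of CSF1R, was 3.96 ± 0.94 lower in tumors than in WT MSCs (0.0139) and 3.95 ± 0.85 lower than in the libraries labelled KO MSC (0.0249). Its values were 5.41 to 10.43 in tumors, 11.10 to 11.98 in the libraries labelled KO MSC and 10.45 to 13.05 in WT MSCs. Angpt1, the TIE2 ligand gene, and Igf1 were 3.14 ± 0.47 and 1.57 ± 0.40 lower in tumors than in WT MSCs (0.00191 and 0.0178).

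Transcription factors known to keep LepR+ cells and their Cxcl12 and Kitl expression in mice were lower in tumors than in WT MSCs in 3 of 3 genes. Their median difference was -3.56, against -0.057 over all genes, of which 10.9% passed as lower. Ebf3 was 3.57 ± 0.42 lower (limma, adjusted p = 0.00113), Foxc1 3.56 ± 0.83 lower (0.0125) and Ebf1 2.57 ± 0.56 lower (0.00903). Against the libraries labelled KO MSC, 1 of the 3 passed, beside 2.28% of all genes that passed as lower. This was Ebf3, 2.204 ± 0.432 lower in tumors (0.0177). Ebf3 was at 5.01 to 5.92 in tumors, 6.90 to 8.57 in the libraries labelled KO MSC and 8.31 to 10.24 in WT MSCs, without overlap between the tumors and either MSC group. Ebf3 and Foxc1 also belong to the LepR+ markers above. Of 6 NF-kB genes, known to act on Vcam1 and Csf1, 1 was higher and 0 lower in tumors than in WT MSCs. Of all genes, 10.4% passed as higher there. The median difference of the 6 was -0.60 against -0.057 over all genes, and none of the 6 passed against the libraries labelled KO MSC. The gene that passed, Nfkbia, encodes an inhibitor of NF-kB (1.48 ± 0.45, limma, adjusted p = 0.0410). Its call was lost with quantile scaling (0.421), a batch term (0.0646) and most other alternatives.

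No gene of these 5 lists passed for the libraries labelled KO MSC against WT MSCs. Of the 16 genes of the lists that passed in tumor against WT MSC, 14 also passed with a batch term and 7 passed whichever library was left out: Kit, Elane, Ctsg, Bmp4, Gas6, Angpt1 and Ebf3. The other 9 did not pass without WT_MSC 1 (adjusted p from 0.0599 to 0.133). Of the 8 that passed against the libraries labelled KO MSC, 7 passed with a batch term, and none passed without KO_MSC 1 (adjusted p from 0.0876 to 0.205).

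**Figure D3:**
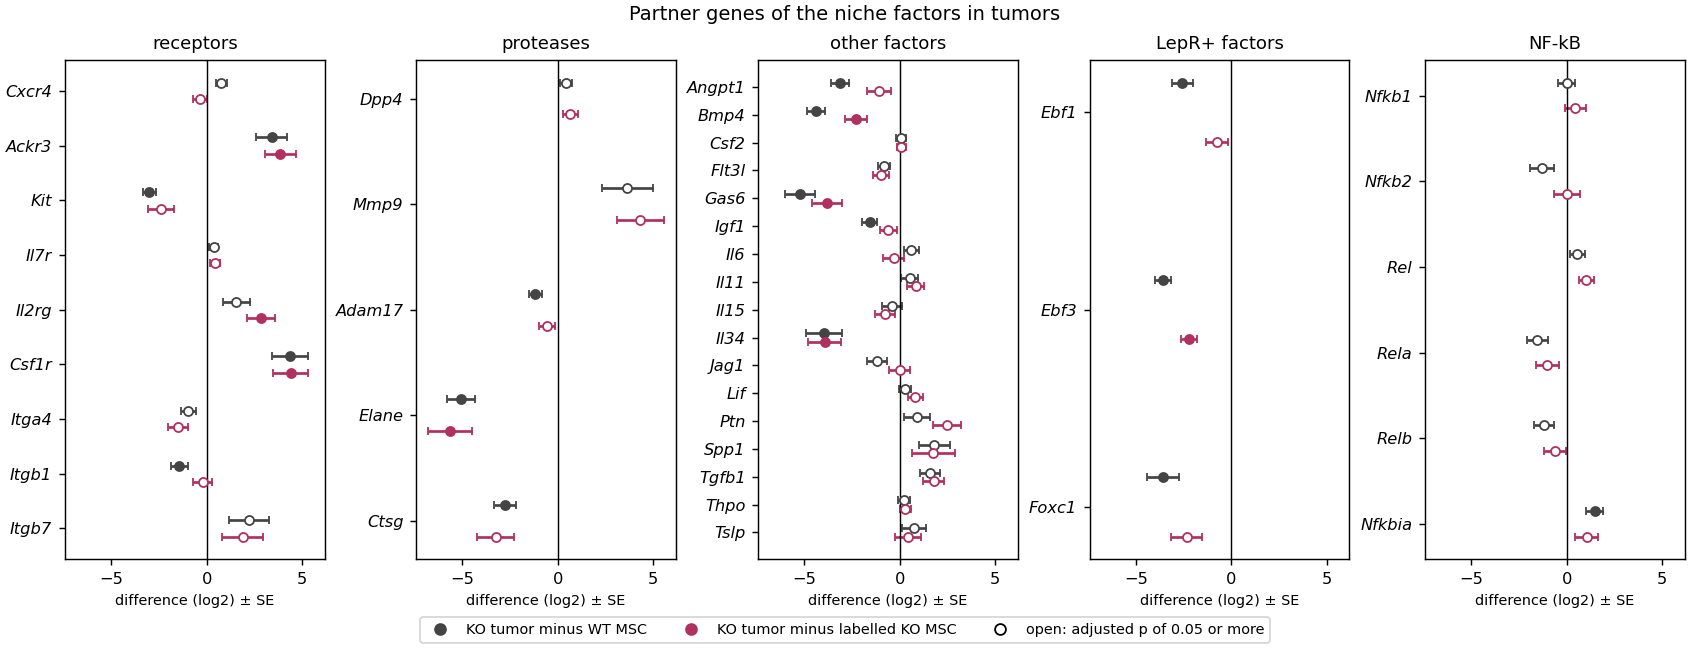
Differences in stabilized log2 value ± SE (horizontal axis) of the tested genes of 5 lists, in KO tumor minus WT MSC (grey) and KO tumor minus libraries labelled KO MSC (red); filled points have a limma adjusted p under 0.05. Ackr3 and Csf1r lie right of 0 in both comparisons, and Gas6, Bmp4, Il34, Elane and Ebf3 lie left of 0 in both.

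Likeness of pattern was measured as the mean absolute difference over the 12 libraries after each gene was centred on its own mean, among 8844 genes with a mean of at least 7 and an ordinary gene symbol. Kitl and Il7 were the members most alike (0.42), followed by Il7 with Vcam1 (0.59) and Kitl with Vcam1 (0.70). Cxcl12 was 1.86 to 3.10 from the other members, and Csf1 1.13 to 3.10. Nearest to Cxcl12 were Adipoq, the adiponectin gene (0.68), and the kininogen genes Kng1 and Kng2 (0.73 each), a pair so similar in sequence that reads may be divided uncertainly between them. Kng1 was at the floor in every tumor, and this floor differed by batch (centred values -2.20 in tumors 1 to 3 and -4.60 in tumors 4 to 6). Kng2 shared 1 value in tumors 1 to 3 (-2.12) and another in tumors 5 and 6 (-4.86), with -3.62 in tumor 4. Among tumors, the likeness of these 2 genes to Cxcl12 therefore cannot be told apart from a shift of the floor between batches. Adipoq averaged 6.90 in tumors, 13.50 in the libraries labelled KO MSC and 13.90 in WT MSCs. Nearest to Kitl were the protocadherin gene Pcdhb9 (0.31), Fam69c (0.48) and the endothelin receptor gene Ednra (0.49). Nearest to Il7 were Pcdhb9 (0.39), the cytokine signalling inhibitor gene Socs3 (0.40) and the protease gene Pappa (0.40). Nearest to Csf1 were Tgfb1i1 (0.36), the secreted Wnt antagonist gene Sfrp1 (0.38) and the mTOR inhibitor gene Deptor (0.38), and nearest to Vcam1 were Pappa (0.35), Fam174b (0.39) and the transcription regulator gene Id4 (0.39). Adipoq, Kng1, Kng2, Pcdhb9, Fam69c, Ednra, Pappa, Fam174b and Id4 averaged under 7 in tumors, so they met the minimum mean only through the MSC libraries. These distances are descriptions, and libraries of 1 group and batch share their source.

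**Figure D4:**
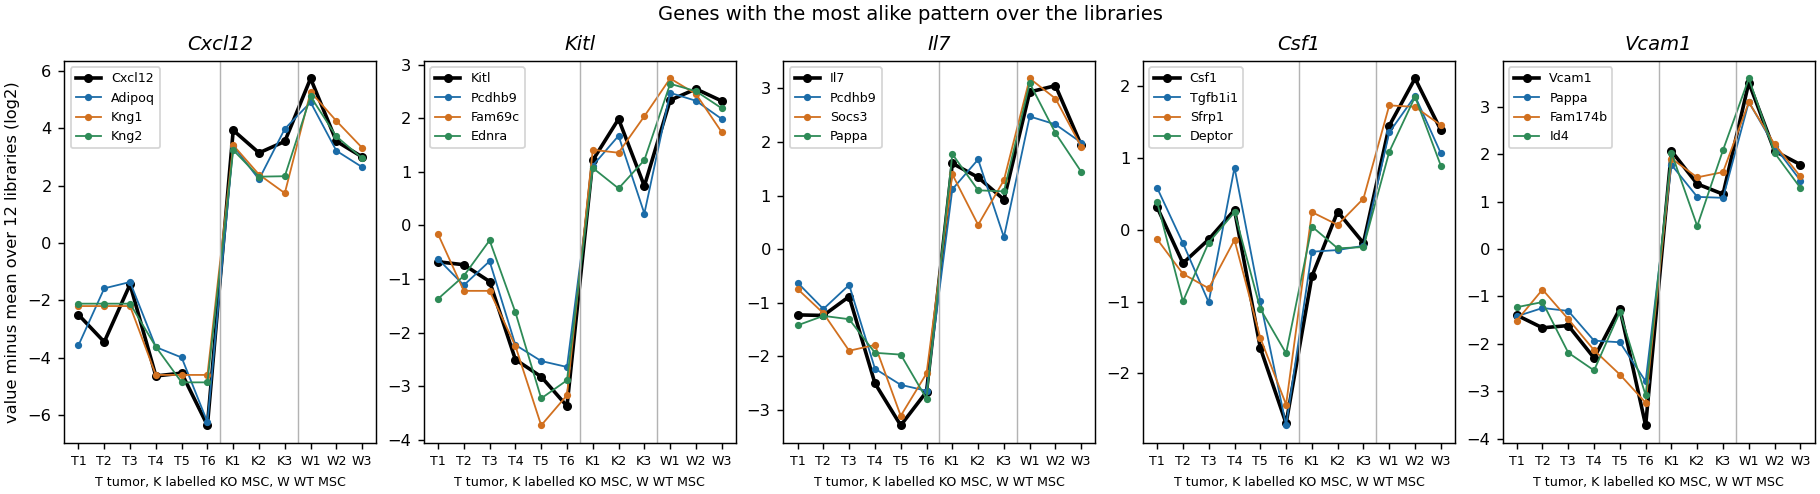
Value minus the gene's own mean over 12 libraries (log2, vertical axis) for each niche factor gene (black) and the 3 genes with the most alike pattern (colours), in KO tumors 1 to 6 (T), libraries labelled KO_MSC 1 to 3 (K) and WT_MSC 1 to 3 (W). The step between tumors and MSCs is largest for Cxcl12, with Adipoq, Kng1 and Kng2 nearest to it (0.68 to 0.73), and Csf1 is the panel in which tumors and the libraries labelled KO MSC overlap.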

How the data were processed

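RNA of sorted marrow cells and of tumors was copied with a SMART-Seq v4 low-input kit and made into libraries that do not mark strand, per the labels' protocols. TopHat2 2.0.13, Cufflinks 2.2.1, Cuffdiff and the build mm10 are named in the submitters' processing notes; the sources used here do not give the steps from alignment to the values. The values used are log2 values from the deposited table, which the authors title as variance-stabilized with a batch adjustment. Low genes are compressed to a floor on this scale, so their changes are understated. The authors' other deposited table, titled as normalized counts, holds a score: 100 times the stabilized value, divided by 1 factor per library (0.978 to 1.02), within rounding. It is not a count, and it served as a filter (18949 genes, of which 18948 vary) and as an alternative. The depth per library is unknown, so no counting interval is given.

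The tool limma 3.58.1 (R 4.3.3) was run on the libraries of the 2 groups compared, without covariates. Its lmFit and trended eBayes steps gave two-sided p-values, with Benjamini-Hochberg adjustment over the 18948 genes and a threshold of 0.05. Exact permutation tests were run per member with scipy 1.17.1. Per-length values subtract the log2 of merged exon length (GENCODE vM21, mm10). Batches were found from floor values shared exactly between libraries (at least 545 within and 0 across batches); the table's title names a batch adjustment, so these p-values can be too small. Genes named in the text are the 5 members, list genes that passed, up to 3 others per list by adjusted p, the 3 genes most alike in pattern to each member, and Trp53; of these the text gives part, and a few list genes, sort and gate markers among them, were named after their values were seen. The members and lists were chosen with earlier results of these data known. Alternatives were no filter, quantile and upper-quartile scaling, the other table, 1 fit of all 12 libraries, a batch term, batch 2 alone, a replicate block, leaving out each library and, chosen after seeing the data, a batch term in 1 fit of all 12 libraries.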

Additional observations from a re-analysis of the deposited data

Results flagged for a closer look

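Among the 6 tumors, 49 genes (the members and the tested genes of the lists and checks) were examined for 1 tumor far from the others, by the gap to its nearest neighbour as a share of the whole range. Chance alone gives this in about 1 in 20 groups. No member had such a tumor, and 5 other genes did. Tumor 4 was far above the other tumors in Csf1r, the CSF1 receptor gene (13.88, with the next tumor at 10.60), in the integrin gene Itgb7 (12.55, with the next at 8.72) and in the protease gene Adam17 (9.21, with the next at 8.16). Tumor 4 also had the highest mean of the macrophage markers, 13.87, and the part of these cells was not tested. Tumor 5 was highest in Csf2, the granulocyte-macrophage growth factor gene (5.82, with the next at 4.76, near the floor of 4.75 common in this table). Tumor 6 was lowest in Igf1 (7.91, with the next at 9.11).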

How the results depend on the processing

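Over the 15 member results, 255 values under alternatives were computed, and 239 kept their direction and their side of the threshold. In no scaling alternative, without the filter, in 1 fit of all 12 libraries or with a batch term did a member's call or direction change. Upper-quartile scaling moved the median of all genes by 0.105 in the libraries labelled KO MSC against WT MSCs and by 0.104 in tumor against WT MSC. Deviations from group means correlated over genes from -0.32 to 0.24 in same-numbered libraries and from -0.32 to 0.30 in differently numbered ones. With 3 libraries per stem cell group, this cannot show whether the numbers pair them. A replicate block, which leaves out tumors 4 to 6 in effect, gave 34 calls in tumor against the libraries labelled KO MSC and 1445 in tumor against WT MSC. Tumors 1 to 3 were all of batch 1, whereas stem cell libraries 2 and 3 were of batch 2. Tumor and batch therefore cannot be fully told apart in this block. With the replicate block, Csf1 reversed against the libraries labelled KO MSC (0.099), and calls were lost against them for Kitl (-2.13), Il7 (-2.40) and Vcam1 (-3.09), and against WT MSC for Csf1 (-1.74). Batch 2 alone, with 7 libraries, gave 229 and 775 calls. It reversed Cxcl12 in the libraries labelled KO MSC against WT MSCs (0.0675) and lost the calls of Vcam1 against the libraries labelled KO MSC (-3.69) and Csf1 against WT MSC (-3.10). In tumor against the libraries labelled KO MSC, calls numbered 1481 with quantile scaling, 1923 in 1 fit of all 12 libraries and 1993 in that fit with a batch term, against 944 as reported.

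Leaving out 1 library gave 113 to 1627 calls in tumor against the libraries labelled KO MSC, with 113 without KO_MSC 1, 396 without KO_MSC 2, 1627 without KO_MSC 3, 597 without tumor 5 and 621 without tumor 6. In tumor against WT MSC it gave 1856 to 4737, with 1856, 2339 and 2268 without WT_MSC 1, 2 and 3. Differences ranged from -3.46 to -2.83 for Kitl, -3.47 to -2.99 for Il7 and -3.71 to -3.17 for Vcam1 against the libraries labelled KO MSC, and from -2.58 to -1.98 for Csf1 against WT MSC. In the libraries labelled KO MSC against WT MSCs, Cxcl12 ranged from -1.11 to 0.26 and Vcam1 from -1.26 to -0.39, and Csf1 in tumor against the libraries labelled KO MSC from -0.76 to -0.14. The causes were not tested. Depth is unknown, so what depth limits cannot be stated beyond the floor.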
